A study of Mus musculus with 6 samples.

Results

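The fibroblasts described here were 315 cell barcodes that carried transcripts of Pi16 or Dpp4 together with Clec3b or Cd34, found among 64599 barcodes of acceptable quality from the injured mouse rotator cuff enthesis. A barcode was a member where it held at least 2000 unique molecular identifiers (UMIs, each 1 counted transcript), 200 detected genes and at most 10% mitochondrial UMIs, where Col1a1, Col1a2 and Col3a1 made up at least 0.5% of its UMIs and S100a8 with S100a9 under 1%, and where Ptprc and Cdh5 were at 0. It then needed at least 1 UMI of Pi16 or Dpp4 and at least 2 of Clec3b or Cd34. Barcodes with Prg4 of 5 or more UMIs, Cxcl5 with Saa3 of 10 or more, any Tnmd, Col2a1 of 5 or more, or Mki67 with Top2a of 2 or more were left out. The members were thus chosen on the measured values of these genes, whose levels are given below as a description without a test.

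Fibroblasts that express Pi16 and Dpp4 occur in many organs, where they lie in the adventitia around vessels and in fascia, and they are regarded as a reservoir from which more specialised fibroblasts can arise. Pi16 encodes a secreted peptidase inhibitor, Dpp4 a dipeptidyl peptidase of the cell surface (CD26), Clec3b the plasminogen-binding protein tetranectin, Cd34 a sialomucin of progenitor and endothelial cells, and Ly6a the surface antigen Sca-1. In injured tendon and joint tissue such cells stand beside tenocytes, synovial lining cells that make lubricin (Prg4), and contractile and matrix-producing fibroblasts.

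The study profiled single cells of the enthesis, the attachment of tendon to bone, in 3 libraries of wild-type C57BL/6 mice and 3 libraries of Nlrp3-/- mice, in which the inflammasome sensor NLRP3 is deleted in the whole body. Both groups were 12 to 14 weeks old and both were injured: the supraspinatus tendon was detached close to the greater tuberosity and sutured back through tunnels in the bone, and tissue was taken at 7 days postinjury. Entheses were pooled for a library, the number of animals per library was not given, and no uninjured tissue was in these libraries. The titles of all 3 knockout libraries say Nlrp3, whereas the genotype field of 2 of them says Nlrp4 or Nlrp5, and they were grouped by title.

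The 6 libraries held 97042713 to 134901999 UMIs, and the members' summed UMIs were 422936, 895293 and 208477 in the wild-type libraries and 144396, 363422 and 1171149 in the Nlrp3-/- libraries. Nlrp3 itself (chromosome 11, 59541568 to 59566956, GRCm38) had 14, 12 and 0 UMIs in the members of the wild-type libraries and 0 in the members of each Nlrp3-/- library, and in the other collagen-gated cells it stood at 4.02, 7.82 and 2.49 CPM in wild type and 0 CPM in each Nlrp3-/- library (CPM, UMIs per 1000000). Xist, the transcript of the inactive X chromosome, was found in the members of each Nlrp3-/- library and in none of the wild-type libraries, and Ddx3y of the Y chromosome the other way round, so sex and genotype cannot be told apart. Wild-type library 3 (16 members) and Nlrp3-/- library 1 (18 members) stood apart, the former with low levels of several marker genes and the latter with a median of 4299 UMIs per collagen-gated barcode against 12834 to 16640 in the others. No member barcode was a member in a second library, although 5 of the 315 sequences also passed the quality limits in another library.

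Pi16 and Dpp4 were abundant in the members and near 0 in the other collagen-gated cells, which met every condition except those on Pi16, Dpp4, Clec3b and Cd34 (4682 barcodes). Levels are given per library, in the order of the library numbers, as UMIs of a gene per 1000000 UMIs of the summed cells (CPM). Pi16 (chromosome 17, 29317680 to 29330593) stood at 480, 516 and 95.9 CPM in wild type and 180.1, 228 and 442 CPM in Nlrp3-/-. Wild-type library 3 was lowest, and the range in the other collagen-gated cells was 0.178 to 2.28 CPM. Dpp4 (chromosome 2, 62330073 to 62412231) reached 33.1, 69.3 and 33.6 CPM in wild type and 62.3, 129 and 88.8 CPM in Nlrp3-/-, a lower level than Pi16 in every library, against 0.13 to 1.17 CPM in the other cells. Clec3b was the most abundant of the 4, at 1764, 2258 and 1885 CPM in wild type and 1164, 1731 and 1598 CPM in Nlrp3-/-, and Cd34 measured 378, 502 and 125 CPM in wild type and 416, 660.4 and 518 CPM in Nlrp3-/-. Wild-type library 3 was again lowest for Cd34 and not for Clec3b.

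Barcodes of blood cells also held Pi16 and Dpp4 UMIs. Among 33983 barcodes with at least 1 Ptprc UMI and collagen UMIs under 0.5%, which are of blood origin, 16.1% had a Pi16 UMI, compared with 4.16% of the 13415 collagen-gated barcodes, at library medians of 4956 to 6050 UMIs against 4299 to 16640. Where S100a8 and S100a9, transcripts of neutrophils, made up at least 1% of UMIs, the share with Pi16 was 31.7% and the level 49.9 to 58.8 CPM, and elsewhere among blood barcodes 7.68% and 8.20 to 15.2 CPM. In the near-empty barcodes of at most 100 UMIs, which hold mostly free RNA, Pi16 stood at 8.41 to 29.8 CPM and Dpp4 at 2.98 to 11.0 CPM. The Pi16 level of barcodes rich in S100a8 and S100a9 lay above that range, and that of the other blood barcodes lay within it or just below. Dpp4 stood at 1.66 to 3.05 CPM in the blood barcodes rich in S100a8 and S100a9 and at 8.24 to 17.9 CPM in the other blood barcodes. In each library the latter value lay above that of the near-empty barcodes, and Nlrp3-/- library 2 had the highest. Over all collagen-gated barcodes Dpp4 was 1.10 to 3.90 CPM. The part of free RNA or of blood cells in the Pi16 and Dpp4 UMIs of members was not tested. The combined condition on Pi16 or Dpp4 with Clec3b or Cd34 was met by 0.627% of blood barcodes (0.324 to 1.06% by library) and by 3.82% of collagen-gated barcodes (0.891 to 5.65%). S100a8 and S100a9 together stood at 482 CPM in members with a single Pi16 or Dpp4 UMI, 541 CPM in members with at least 2 and 425 CPM in the 1144 other cells that had Clec3b or Cd34 but no Pi16 or Dpp4.

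Most members held either Pi16 or Dpp4 and not both. Of the 315, 184 (58.4%) had Pi16 without Dpp4, 57 (18.1%) had Dpp4 without Pi16 and 74 (23.5%) had both. Dpp4 alone was the most frequent pattern in Nlrp3-/- library 2, at 22 of 37 members, whereas wild-type library 3 had no member with both. The highest count in 1 cell was 49 UMIs for Pi16 and 10 for Dpp4. Membership rested on 1 UMI of Pi16 or Dpp4 in 120 members (38.1%), with 29.4, 37.9 and 75% in the wild-type libraries and 50, 48.6 and 30.4% in the Nlrp3-/- libraries. Ly6a was detected in 301 members (95.6%), and Clec3b and Cd34 together in 274 (87.0%).

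The members just inside the limits were set beside those well inside, in values pooled over libraries and given as a description. In the 120 members with 1 UMI of Pi16 or Dpp4, Ly6a stood at 1222 CPM, Cd55 at 123 CPM and Sema3c at 150.0 CPM, and in the 195 with at least 2 UMIs at 2537, 266 and 364 CPM. Igfbp6 stood at 1397 and 1738 CPM, but within wild-type library 2 (1444 against 1416 CPM) and Nlrp3-/- library 1 (1521 against 1374 CPM) it was not lower in the members with 1 UMI. The 74 members with both Pi16 and Dpp4 had pooled levels of 3206 CPM of Ly6a, 399 CPM of Cd55 and 549 CPM of Sema3c. Of these cells 34 came from Nlrp3-/- library 3. Within libraries they were not always above those with Dpp4 alone. Cd55 in wild-type library 2 was 171 against 197 CPM. Members with Dpp4 alone had 2813 CPM of Igfbp6 against 1008 CPM in those with Pi16 alone, and 22 of these 57 cells came from Nlrp3-/- library 2. Just outside the limits, the 28 cells with Pi16 or Dpp4 and a single UMI of Clec3b or Cd34 had 331 CPM of Ly6a, and the 10 members with exactly 2 such UMIs, 0 to 4 in each library, had 313 CPM. The 1144 cells with Clec3b or Cd34 and no Pi16 or Dpp4 had 767 CPM of Ly6a, and the 57 cells with Pi16 or Dpp4 and neither Clec3b nor Cd34 had 130 CPM.

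Markers of other cell types were summed in the members of each library. Collagen-gated barcodes with progenitor UMIs numbered 512 before the exclusions, which took out 197 of them, 98 for Prg4, 81 for Tnmd, 51 for Cxcl5 and Saa3, 28 for Mki67 and Top2a and 3 for Col2a1, some for more than 1 gene. The summed level of 6 endothelial markers was 4.80 to 14.2 CPM in the wild-type and 0 to 16.2 CPM in the Nlrp3-/- members, with Cdh5 at 0 by the rule. In the other collagen-gated cells it was 21.6 to 37.4 CPM and 21.7 to 45.3 CPM. The sum of 6 lymphocyte markers was 0 to 37.8 CPM and 0 to 22.0 CPM in members, and 3.21 to 20.9 CPM and 8.55 to 10.6 CPM in the other cells. The sum of 6 mural markers, genes of pericytes and vascular smooth muscle, was 24.0 to 51.4 CPM and 22.0 to 201 CPM in members against 974 to 1144 CPM and 578 to 1843 CPM in the other collagen-gated cells. These markers, and the 5 osteoblast markers at 87.0 to 536 CPM and 26.5 to 456 CPM, showed that the comparison cells held mural and osteoblast-marker cells, whereas the osteoblast sum was 1.12 to 9.59 CPM and 0 to 14.5 CPM in members. The 5 chondrocyte markers summed to 44.9 to 446 CPM in wild-type and 48.5 to 245 CPM in Nlrp3-/- members, against 156 to 609 CPM and 242 to 687 CPM in the other collagen-gated cells. The highest value was that of wild-type library 3, where Col9a1 and Matn3 were at 0. The 8 macrophage markers summed to 81.5 to 563 CPM in wild-type members and 127 to 1440 CPM in Nlrp3-/- members, with the maximum in Nlrp3-/- library 1. In the other cells they summed to 122 to 391 CPM and 120 to 1431 CPM. Neutrophil markers, of which the rule limits S100a8 and S100a9, summed to 556 to 1208 CPM and 561 to 733 CPM in members. They summed to 455 to 1149 CPM and 568 to 1030 CPM in the other cells, and to 26860 to 85376 CPM in the near-empty barcodes of the same libraries, those with at most 100 UMIs. The 6 tenocyte markers summed to 969 to 1331 CPM and 562 to 1734 CPM in members, with Tnmd at 0 by the rule and Mkx at 0 in 4 of 6 libraries. In the other cells they summed to 735 to 1262 CPM and 610 to 1755 CPM.

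The share of these cells varied more within each genotype than between them. Members made up 2.84, 3.80 and 1.07% of collagen-gated barcodes in the wild-type libraries and 0.573, 1.84 and 3.74% in the Nlrp3-/- libraries. The means were 2.57 ± 1.39% and 2.05 ± 1.60% (SD, n = 3 libraries each), the groups overlapped, and the difference of -0.517 percentage points had p = 0.7 in a two-sided exact permutation test, whose smallest possible p is 0.1. Wilson 95% intervals, which cover counting error only, were 0.362 to 0.903% in Nlrp3-/- library 1 and 3.13 to 4.47% in Nlrp3-/- library 3. With every barcode thinned to 2000 UMIs the means were 1.42% and 0.975%, and over all barcodes of acceptable quality the difference turned to +0.0572 percentage points. It also turned without wild-type library 2 (+0.0998) and without Nlrp3-/- library 1 (+0.223).

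**Figure D1:**
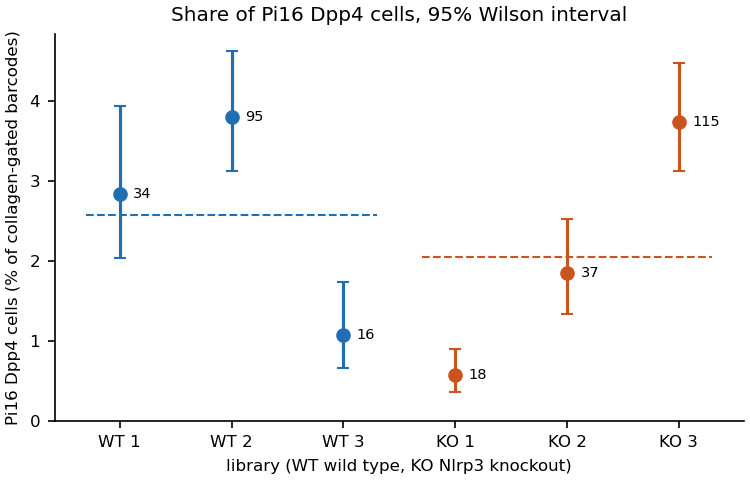
Members as a percentage of collagen-gated barcodes in each library, with 95% Wilson intervals (counting error only), the number of members beside each point and the group mean as a dashed line. Wild-type libraries (WT) lie between 1.07 and 3.80% and Nlrp3-/- libraries (KO) between 0.573 and 3.74%, so the groups overlap.

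Which genes besides those of the rule set the members apart from the other collagen-gated cells was asked within each library, with edgeR's quasi-likelihood test on summed UMIs, the library as a block and Benjamini-Hochberg adjustment over 12138 genes. The progenitor signature, 22 genes known from such fibroblasts in other tissues that the rule did not use, was higher in the members for 16 genes and lower for 0. Of all genes tested 1733 (14.3%) passed, 856 (7.05%) higher and 877 (7.23%) lower. These counts over all genes include genes of the rule, such as Cxcl5, whose values the selection had itself limited. The median log2 difference of the signature was 2.20, against -0.03 over all genes tested, and all 22 were positive. The members were defined by neighbouring markers in the same cells, so the signature describes them and does not test their identity. In the 4 libraries with at least 20 members 17 of 22 were higher, with all cells thinned to 2000 UMIs 18 of 21, and among the 214 members and 2902 other cells with no UMI of a mural or osteoblast marker 15 of 22.

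Ly6a (chromosome 15, 74994877 to 74998031), the marker of the label that the rule did not use, stood at 2839.7, 2692 and 595 CPM in wild type and 1434, 2108 and 1561 CPM in Nlrp3-/- in members and at 392, 622 and 231 CPM in wild type and 171, 484 and 234 CPM in Nlrp3-/- in the other collagen-gated cells. It was higher in the members of 6 of 6 libraries, by 2.39 ± 0.25 (adjusted p = 0.00162) on the log2 scale (SE, 6 libraries), and lowest in wild-type library 3. Cd55, which shields cells from complement, measured 102, 149 and 76.7 CPM in wild type and 215, 286 and 299.7 CPM in Nlrp3-/- against 16.2 to 38.5 CPM in the other cells and differed by 2.98 ± 0.18 (adjusted p = 1.81e-09). Igfbp6, a binding protein of insulin-like growth factors, reached 877, 1428 and 998 CPM in wild type and 1427, 3332 and 1609 CPM in Nlrp3-/- and differed by 2.14 ± 0.14 (adjusted p = 2.17e-08). The highest Igfbp6 value was that of Nlrp3-/- library 2, where Dpp4 alone was most frequent.

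Other surface and secreted products of the signature differed in the same direction. Ly6c1, a relative of Ly6a, was higher by 3.17 ± 0.33 (adjusted p = 0.00201), Sema3c, a secreted guidance protein, by 2.82 ± 0.28 (adjusted p = 0.000673), and Ackr3, a scavenging receptor for CXCL12, by 2.38 ± 0.13 (adjusted p = 9.92e-16). The Wnt ligand Wnt2 stood at 9.46, 22.3 and 0 CPM in wild type and 48.5, 74.3 and 65.7 CPM in Nlrp3-/- and at no more than 2.90 CPM in the other cells, and Efhd1, a mitochondrial calcium-binding protein, at 4.73, 12.3 and 0 CPM in wild type and 13.9, 52.3 and 40.1 CPM in Nlrp3-/-. Both were scarce, at 0 in wild-type library 3, yet passed, at 4.58 ± 0.37 (adjusted p = 1e-10) and 4.87 ± 0.43 (adjusted p = 5.55e-11). Of the microfibril genes of the signature, Mfap5 was higher by 1.35 ± 0.09 (adjusted p = 3.7e-14) and Fbn1, fibrillin-1, by 1.10 ± 0.12 (adjusted p = 2.07e-06). Efemp1 at 2.50 ± 0.60 (adjusted p = 0.0529), Pcolce2 at 2.47 ± 0.73 (adjusted p = 0.0969) and Anxa3 at 1.48 ± 0.40 (adjusted p = 0.0729) did not pass, nor did Procr, Limch1 and Stmn4. With all cells thinned to 2000 UMIs Efemp1, Pcolce2 and Anxa3 passed. Cd248, endosialin, passed with all 6 libraries (1.58 ± 0.32, adjusted p = 0.0311) and not without Nlrp3-/- library 1, 2 or 3 or wild-type library 2 (adjusted p = 0.063 to 0.102 over these 4 fits). Neither Cd248 nor Creb5 passed among cells with no mural or osteoblast marker UMI. Creb5 and Tppp3 likewise lost their call when single libraries were left out, at adjusted p up to 0.119 and 0.139.

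**Figure D2:**
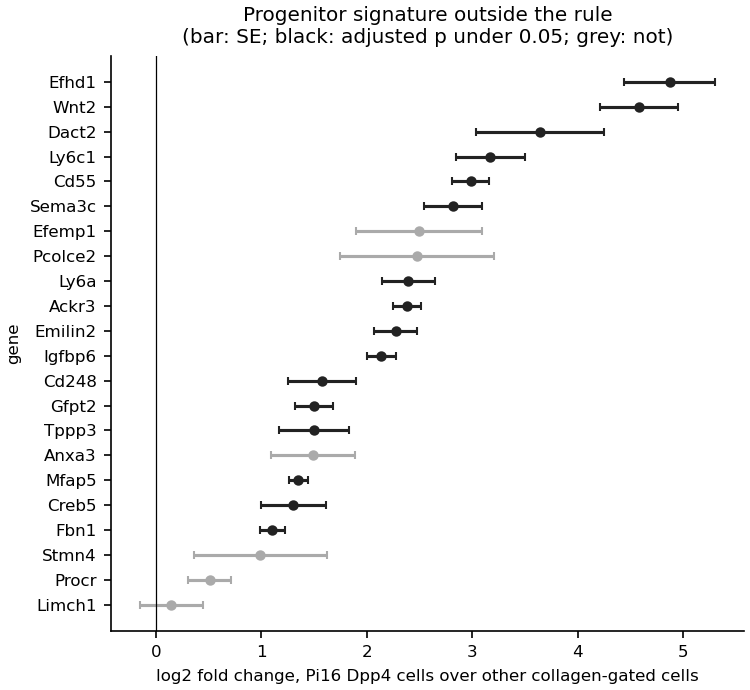
Log2 fold change of the 22 signature genes in members over the other collagen-gated cells, with the SE as bars (6 libraries, library as a block); black marks an adjusted p under 0.05 and grey the rest. All 22 lie above 0, from Limch1 near 0 to Efhd1 at 4.87.

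Beyond the signature, the genes with the largest differences upward had varied known roles, and the Wnt antagonists Sfrp4 and Dkk2 among them are given with their list below. Pcsk6, a proprotein convertase, was 75.7, 105 and 4.8 CPM in wild type and 55.4, 206 and 108 CPM in Nlrp3-/- and differed by 3.68 ± 0.28 (adjusted p = 5.1e-06). Tnxb, tenascin-X, which organises collagen in loose connective tissue, reached 421, 669 and 38.4 CPM in wild type and 575, 856 and 502 CPM in Nlrp3-/- against 9.81 to 73.5 CPM in the other cells (3.63 ± 0.55, adjusted p = 0.0107). Wild-type library 3 held the lowest value of both. Scara5, a ferritin receptor, differed by 3.10 ± 0.27 (adjusted p = 4.03e-06), Ace, the angiotensin-converting enzyme, by 2.95 ± 0.19 (adjusted p = 2.67e-10), Gas7 by 3.01 ± 0.24 (adjusted p = 1.83e-05), and Abca8a, a lipid transporter, by 2.89 ± 0.20 (adjusted p = 1.92e-07). Ccn3, a matricellular protein, was 246, 333 and 317 CPM in wild type and 859, 806 and 622 CPM in Nlrp3-/- (3.08 ± 0.24, adjusted p = 0.000183). Col6a6 passed as well, by 3.02 ± 0.55 (adjusted p = 0.0191), but without any 1 of 4 libraries (wild-type library 1, 2 or 3 or Nlrp3-/- library 3) it did not, at adjusted p = 0.0504 to 0.101. Tnxb lost its call without Nlrp3-/- library 3 (adjusted p = 0.0538).

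The genes furthest below the other cells were Higd1b, Rgs5, Ibsp, Mcam and Tinagl1. Fitted differences were -7.34 for Higd1b and -5.14 for Tinagl1, with Rgs5, Ibsp and Mcam between them, and at such low levels they depend on the prior count. Higd1b had 1 UMI in all members and stood at 33.7 to 81.0 CPM in the other cells. Rgs5, a pericyte gene, was at 2.36, 2.23 and 4.8 CPM in wild type and 111, 0 and 5.98 CPM in Nlrp3-/- against 423 to 1466 CPM. Ibsp, bone sialoprotein, was at no more than 9.46 CPM in members, Mcam at no more than 2.56 CPM and Tinagl1 at no more than 6.93 CPM. Acta2, smooth muscle actin, stood at 70.9, 80.4 and 9.59 CPM in wild type and 180.1, 71.5 and 78.6 CPM in Nlrp3-/- in members and 963 to 1565 CPM in the other cells, -4.01 ± 0.37 (adjusted p = 0.00147). Tagln, Myl9 and the bone and inflammation protein Spp1 differed by -3.37 ± 0.37 (adjusted p = 0.00272), -2.82 ± 0.14 (adjusted p = 2.09e-17) and -3.15 ± 0.33 (adjusted p = 0.00205). All 4 lay below the other cells in 6 of 6 libraries. Notch3, Des and Actg2 passed too, as did the 5 genes furthest below. Among cells with no UMI of a mural or osteoblast marker, Acta2, Tagln, Myl9 and Spp1 still passed, at -3.56, -3.13, -2.62 and -3.03, whereas Mcam (-1.65, adjusted p = 0.134) and Actg2 (-2.33, adjusted p = 0.174) did not, and the other 6 genes, of which Rgs5, Notch3, Des and Ibsp were themselves part of that condition, were not tested. Over all alternatives of this comparison the adjusted p ranged from 1.1e-44 to 0.134 for Mcam and from 1.78e-43 to 0.174 for Actg2.

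**Figure D3:**
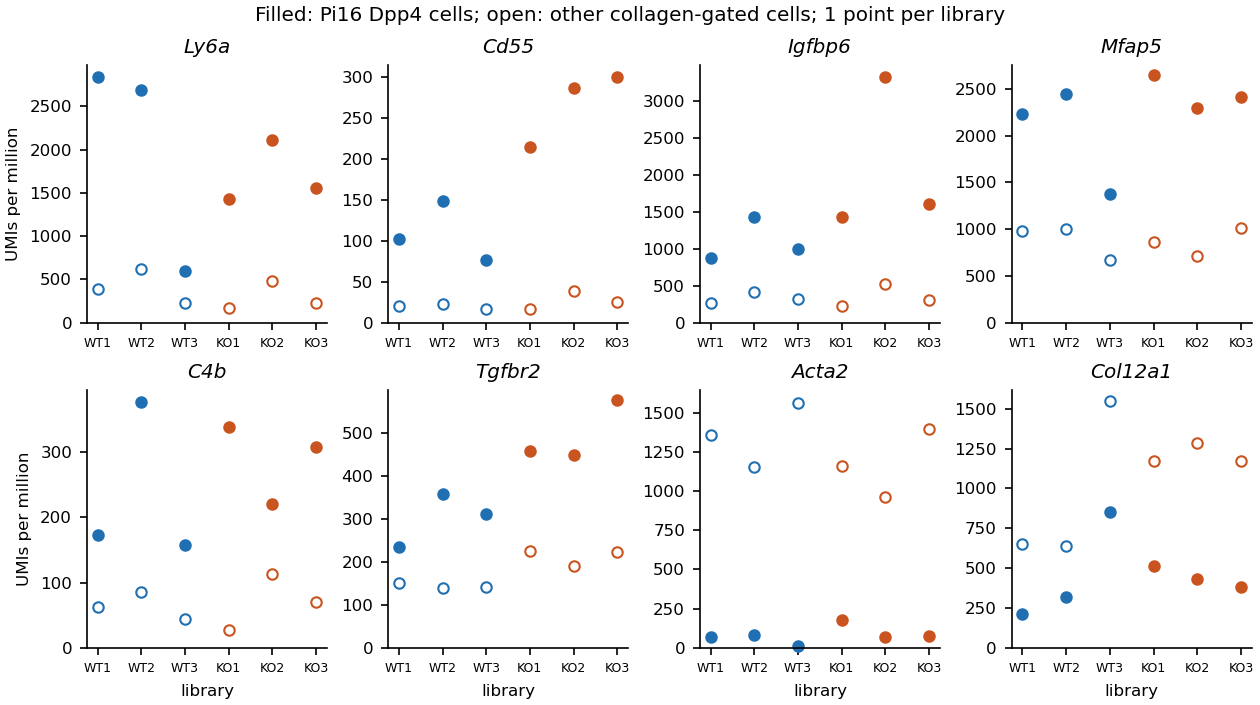
Level in CPM of 8 genes in members (filled) and in the other collagen-gated cells (open) of each library, wild type in blue and Nlrp3-/- in orange. Ly6a, Cd55, Igfbp6, Mfap5, C4b and Tgfbr2 lie above the other cells in 6 of 6 libraries, and Acta2 and Col12a1 below them.

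Of 15 genes of activated matrix-producing fibroblasts, 9 were lower in the members and 1, Fn1, was higher, with a median of -0.76. Among cells with no mural or osteoblast marker UMI 10 were lower and 0 higher. Fn1, Tnc and Lrrc15 did not pass there, and Cthrc1, Col5a2 and Lox passed there without passing among all cells. Col12a1, a collagen of tendon and healing tissue, was 213, 318 and 854 CPM in wild type and 512, 432 and 383 CPM in Nlrp3-/- against 650, 639.6 and 1548 CPM in wild type and 1169, 1283 and 1174 CPM in Nlrp3-/- in the other cells, -1.31 ± 0.10 (adjusted p = 7.73e-12). Runx1, a transcription factor, differed by -1.03 ± 0.15 (adjusted p = 9.54e-05), and Tnc, tenascin-C, by -1.45 ± 0.30 (adjusted p = 0.033), a call that did not hold without wild-type library 1 or 2 or Nlrp3-/- library 2 or 3 (adjusted p = 0.0563 to 0.104). Postn, periostin, did not pass (0.23 ± 0.25, adjusted p = 0.677) and was highest in the members of wild-type library 3, at 11013 CPM. Among 12 collagen and small proteoglycan genes 4 were higher and 3 lower, with a median of -0.16. Col14a1, which binds collagen fibrils, at 1.67 ± 0.10 (adjusted p = 9.75e-16), and Dcn, decorin, at 1.56 ± 0.09 (adjusted p = 1.69e-16), were higher in 6 of 6 libraries, Prelp and Lum were higher, and Fmod, Col6a3 and Col16a1 were lower. Of 10 elastic fibre genes 5 were higher (Fbln1, Fbln5, Mfap2, Ltbp4 and Loxl1) and 2 lower (Ltbp2 and Emilin1), with a median of 0.52. Among cells with no mural or osteoblast marker UMI, Fbln5, Mfap2 and Loxl1 did not pass, 2 were higher and 2 lower, and the median was 0.22. Fbln1, fibulin-1, differed by 1.24 ± 0.12 (adjusted p = 3.3e-10), while Eln, elastin, at 1.44 ± 0.42 (adjusted p = 0.0957), did not pass.

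Of 9 complement genes 6 were higher in the members and 1, Cd59a, was lower, with a median of 1.22. Serping1, the C1 inhibitor, stood at 1821, 1701 and 835 CPM in wild type and 949, 1249 and 1421 CPM in Nlrp3-/- against 345 to 677 CPM in the other cells and differed by 1.27 ± 0.10 (adjusted p = 1.08e-12). C4b, at 173, 378 and 158 CPM in wild type and 339, 220.1 and 308 CPM in Nlrp3-/-, differed by 1.99 ± 0.34 (adjusted p = 0.0152), and Cfb, factor B, by 1.84 ± 0.33 (adjusted p = 0.0178). C1s1, C1ra and C2 made up the 6. C4b lost its call without wild-type library 2 (adjusted p = 0.0609) or Nlrp3-/- library 3 (0.0663), and Cfb without wild-type library 1, 2 or 3 or Nlrp3-/- library 3 (adjusted p = 0.0516 to 0.0616). C3, at 1.59 ± 0.43 (adjusted p = 0.0772), did not pass.

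Genes of inflammatory signalling had no common direction. Of 19 chemokine, cytokine and interleukin-1 response genes 5 were higher and 2 lower (Vcam1 and Lif), with a median of 0.01. Ccl11, eotaxin, was 70.9, 105 and 62.4 CPM in wild type and 90.0, 132 and 68.3 CPM in Nlrp3-/- against 17.5 to 45.3 CPM in the other cells (1.42 ± 0.15, adjusted p = 1.97e-09). Il33, an alarmin, was higher by 1.76 ± 0.35 (adjusted p = 0.0263) and lost its call without wild-type library 1 or Nlrp3-/- library 1 or 3 (adjusted p = 0.0647 to 0.0772), and Icam1, Csf1 and Tnfaip6 also passed. Il1r1, the receptor of interleukin-1, was 232, 89.4 and 57.6 CPM in wild type and 159, 105 and 138 CPM in Nlrp3-/-, did not pass (-0.21 ± 0.19, adjusted p = 0.571) and lay on both sides of the other cells. Of 8 inflammasome genes tested, Pycard, the adaptor ASC, was higher (0.61 ± 0.15, adjusted p = 0.00392, lost without wild-type library 2 at 0.0576). Casp1, Il1b, Il18 and Nlrp3 did not pass.

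Receptors and modulators of growth signals differed gene by gene. In the Wnt, BMP and TGF-beta list 5 of 13 tested were higher and 3 lower (Dkk3, Wif1 and Tgfbi), with a median of 0.37. Bmp4, Tgfbr3, Tgfbr2, Sfrp4 and Dkk2 were the 5. Tgfbr2, a receptor of TGF-beta, stood at 234, 357 and 312 CPM in wild type and 457, 449 and 576 CPM in Nlrp3-/- against 138 to 225 CPM (1.15 ± 0.11, adjusted p = 3.24e-10), with no overlap between members and other cells. The Wnt antagonists Sfrp4 and Dkk2 passed at 3.16 ± 0.64 (adjusted p = 0.031) and 2.84 ± 0.53 (adjusted p = 0.0218). Sfrp4 did not pass without wild-type library 1 or 2 or Nlrp3-/- library 2 or 3 (adjusted p = 0.0659 to 0.118), nor Dkk2 without Nlrp3-/- library 2 or 3 (0.0678 and 0.101). Of 13 growth factor and receptor genes 5 were higher and 2 lower, with a median of 0.45. Pdgfra, the fibroblast receptor of platelet-derived growth factor, was higher by 0.82 ± 0.11 (adjusted p = 1.32e-06), and Pdgfrb, the receptor shared with mural cells, differed by -1.05 ± 0.13 (adjusted p = 5.89e-08). Fgfr1, Igf1r, Fgf2 and Ntrk2 were higher. With all cells thinned to 2000 UMIs, Pdgfra, Fgfr1 and Igf1r were not called. Of the 3 genes with which the study marked mesenchymal stem cells, Ly6a and Pdgfra were higher and Cebpd was not past the threshold (0.45 ± 0.26, adjusted p = 0.378). How the study chose them is not given in the sources used here.

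In the list of quiescence and cell cycle genes 3 of 10 were higher and 2 lower (Cdkn2a and Mcm2), and the rule had removed cells with 2 or more UMIs of Mki67 with Top2a. Klf4 and Klf2, transcription factors of quiescent cells, differed by 1.46 ± 0.14 (adjusted p = 3.47e-07) and 0.84 ± 0.12 (adjusted p = 4.03e-06), and the cell cycle inhibitor Cdkn1c by 1.88 ± 0.36 (adjusted p = 0.0262), a call lost in 5 of the 6 fits with 1 library left out (adjusted p = 0.0689 to 0.0965, all but that without Nlrp3-/- library 2). Cdkn2a, which encodes p16 and p19, differed by -2.67 ± 0.30 (adjusted p = 1.18e-08), at no more than 7.09 CPM in members. Of 10 adipocyte-lineage genes 1 was higher (Gdf10) and 2 were lower (Fabp4 and Cd36), and of 10 genes of the perivascular Col15a1 fibroblast type 2 were higher (Penk and Hspg2) and 3 lower (Col15a1, Col4a1 and Col4a2). Both lists changed among cells with no mural or osteoblast marker UMI. Of 8 adipocyte-lineage genes tested there 2 were higher (Lpl and Fmo2) and 0 lower, and the median went from 0.28 to 0.67. Of the 10 perivascular genes 5 were higher and 0 lower, and the median went from -0.13 to 0.75. Col15a1, Col4a1 and Col4a2 turned from lower to higher, at 0.78, 0.77 and 0.79 (adjusted p = 0.0005, 0.00352 and 0.00216) from -0.47, -1.40 and -1.22, and Hspg2 did not pass. Of 10 genes induced by tissue dissociation 0 were higher and 2 lower (Hspa1a and Hspa1b), with a median of 0.01. In the same cells without such markers Lum, Col6a3, C4b, Cfb, Tnfaip6, Pycard, Fgfr1, Tgfbi, Gdf10, Fabp4, Cdkn1c, Mcm2, Hspa1a and Hspa1b did not pass and Wif1 and Cd36 were not tested, and Nlrp3 and Fos passed as higher and Grem1 and Col5a1 as lower. Of other named genes of the lists, thinning ended the calls of Penk, Hspg2, Fn1, Col6a3, Fbln5, Mfap2, Cd36, C2, Cd59a, Icam1, Tnfaip6, Lif, Pycard, Wif1 and Mcm2. It added those of Eln, C3, Smoc2, Dlk1, Cxcl14, Sfrp2, Igf1 and Igf2 as higher and of Cxcl12, Sparcl1, Lox, Col6a1 and Ccl2 as lower. Among the listed genes named without a value, Lrrc15, Col6a3, Fmod, Lum, Mfap2, Vcam1, Icam1, Tnfaip6, Bmp4, Dkk3, Hspg2, Col15a1, Fabp4, Cd36 and Mcm2 did not pass in at least 1 of the fits with 1 library left out (adjusted p = 0.0553 to 0.426 in those fits).

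**Figure D4:**
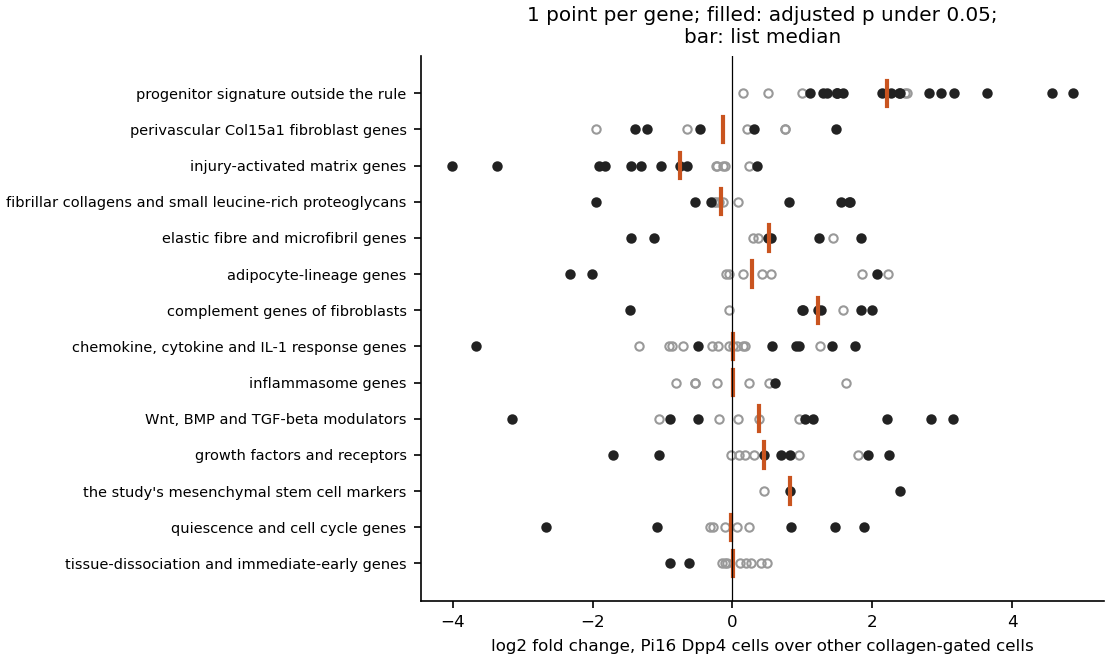
Log2 fold change of every tested gene of 14 lists in members over the other collagen-gated cells, 1 point per gene, filled where the adjusted p is under 0.05, with the list median as an orange bar. The progenitor signature has its median at 2.20 and complement at 1.22, while the chemokine and inflammasome lists have theirs at 0.01 and the injury matrix list at -0.76.

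The same lists were set against 2 other kinds of collagen-gated cells that the rule had excluded. Lining cells had Prg4 of 5 or more UMIs, and Cxcl5 Saa3 cells had Cxcl5 with Saa3 of 10 or more and Prg4 under 5. Neither had a condition on Tnmd, Col2a1, Mki67 or Top2a. In the 4 libraries with at least 20 members, median UMIs were 16116 to 19703 in lining cells and 12793 to 17091 in Cxcl5 Saa3 cells. Members there had 9020 to 12548, and these comparisons were not repeated with thinned cells. The counts over all genes again include genes of the rule, such as Clec3b in the first comparison and Saa3 in the second. Against the Prg4 lining cells of the 4 libraries with at least 20 members, 3313 of 12252 genes passed (27.0%), 1503 higher (12.3%) and 1810 lower (14.8%). These lining cells numbered 324 and 465 in wild-type libraries 1 and 2 and 548 and 809 in Nlrp3-/- libraries 2 and 3. Of the 22 signature genes 18 were higher and 0 lower. Of elastic fibre genes 7 of 10 were higher, and of complement genes 5 and of adipocyte-lineage genes 6, with 2, 0 and 0 lower. Against the cells rich in Cxcl5 and Saa3, genes of inflamed fibroblasts, in the same 4 libraries 1659 of 9420 passed (17.6%), 907 higher (9.63%) and 752 lower (7.98%). These cells numbered 202 and 893 in wild-type libraries 1 and 2 and 31 and 82 in Nlrp3-/- libraries 2 and 3. Of the 20 signature genes tested 18 were higher. Of 18 chemokine, cytokine and interleukin-1 response genes tested there, 2 were higher (Icam1 and Il33) and 4 lower (Il1r1, Ptgs2, Nfkbia and Vcam1). Il1r1 differed by -1.07 ± 0.25 (adjusted p = 0.0214), and did not pass without wild-type library 2 (0.0876) or Nlrp3-/- library 3 (0.0919). Icam1, Ptgs2 and Nfkbia also did not pass in at least 1 of the fits with 1 library left out. The counts of 3313 and 1659 genes rested on the libraries with most members. Without wild-type library 2 they fell to 2185 and 739, and the second to 806 without Nlrp3-/- library 3.

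The members of the Nlrp3-/- libraries were next compared with those of the wild-type libraries. The test took the 4 libraries with at least 20 members, 2 of each genotype, since wild-type library 3 and Nlrp3-/- library 1 held fewer, and in edgeR's quasi-likelihood test 55 of 7153 genes passed (0.769%), 6 higher in Nlrp3-/- (0.0839%) and 49 lower (0.685%), while 1401 had an unadjusted p under 0.05. With all 6 libraries 7 of 5272 passed (0.133%), each of them among the 55. These were Xist, Ddx3y, Akap12, Dbp, Tspan4, H2afj and Tpm3-rs7. Over the 6 libraries the wild-type and Nlrp3-/- values did not overlap for 4 of the 6 higher and 24 of the 49 lower genes, beside 20.1% of all genes tested. Nothing is read from this, since the 55 were called on 4 of the same libraries. Leaving out 1 of the 4 libraries left an arm with 1 sample, assumed to vary like the other arm, and gave 129 to 792 calls, the fewest without wild-type library 1 and the most without Nlrp3-/- library 3. The share of lower genes, 49 of 55, varied with the setting. It was 89 of 107 with RLE size factors, 88 of 109 with DESeq2 and 305 of 500 with no filter on low counts. With 1 library left out it was 80 of 129 without wild-type library 1, 101 of 133 without wild-type library 2, 386 of 566 without Nlrp3-/- library 2 and 480 of 792 without Nlrp3-/- library 3. Replicates here are libraries, so p-values measure only the spread between these samples, which may be technical.

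The 55 genes were then placed on the chromosomes. Xist was at 0 CPM in each wild-type library and 990.3, 1007 and 764 CPM in Nlrp3-/- (adjusted p = 9.31e-05). Ddx3y was at 40.2, 51.4 and 43.2 CPM in wild type and 0 CPM in each Nlrp3-/- library (adjusted p = 0.0122), and did not pass without wild-type library 2 (0.0742). In all 3 of the 55 lay on chromosome X, 1 on Y, 3 within 20 Mb of Nlrp3 on chromosome 11 (Atox1, Uqcrq and Xaf1) and 48 elsewhere. Of the 7153 genes tested 210 lay on X, 2 on Y and 229 within that distance of Nlrp3.

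Akap12, a scaffold protein that anchors protein kinase A, was higher in the Nlrp3-/- members with 4 and with 6 libraries. Its level (chromosome 10, 4266380 to 4359470) was 33.1, 42.4 and 48.0 CPM in wild type and 97.0, 149 and 189.6 CPM in Nlrp3-/-, without overlap. The difference was 1.95 ± 0.27 (adjusted p = 0.0183) with 4 libraries and 1.77 ± 0.30 (adjusted p = 0.0284) with 6. Over edgeR's alternatives with at least 2 libraries per genotype the adjusted p of Akap12 ranged from 1.74e-08 to 0.0361. DESeq2 gave it no adjusted p with 4 or with 6 libraries. With 1 library left out the difference was 1.69 to 2.14. In the other collagen-gated cells it was 27.7, 31.3 and 26.7 CPM in wild type and 25.3, 26.3 and 34.8 CPM in Nlrp3-/-, where the groups overlapped. Gpc3, a glypican on chromosome X, was 96.9, 104 and 149 CPM in wild type and 443, 305 and 289 CPM in Nlrp3-/- (1.35 ± 0.22, adjusted p = 0.0354). Sema3c of the progenitor signature was 139.5, 145 and 43.2 CPM in wild type and 270.1, 374 and 457 CPM in Nlrp3-/- (1.35 ± 0.24, adjusted p = 0.0419). For both the groups did not overlap, but in edgeR's fit over all 6 libraries neither passed (adjusted p = 0.0789 and 0.124), nor without wild-type library 1 (0.105 and 0.138) or wild-type library 2 (0.0619 and 0.0932); over all alternatives Gpc3 ranged from 6.89e-06 to 0.105 and Sema3c from 6.77e-08 to 0.181. With DESeq2 over all 6 libraries Gpc3 and Sema3c passed (adjusted p = 0.00404 and 0.00972). Snx18 (1.35 ± 0.24, adjusted p = 0.0432) and Igfbp3 (2.76 ± 0.47, adjusted p = 0.0398) completed the 6 higher genes. Snx18 was 73.3, 91.6 and 173 CPM in wild type and 166, 223 and 264 CPM in Nlrp3-/-, with overlap between genotypes. It did not pass without wild-type library 1 (0.129) or over all 6 libraries (0.197, 0.195 with the block and 0.156 with DESeq2). Igfbp3 was at 0 in Nlrp3-/- library 1, and did not pass in members with at least 2 UMIs of Pi16 or Dpp4 (0.0616) or over all 6 libraries with the block (0.106). Its difference was 4.56 without wild-type library 2 and 2.29 to 2.86 without another of the 4 libraries.

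The metallothioneins, small zinc-binding proteins, were lower in the Nlrp3-/- members. Mt1 was 2839.7, 1478 and 580.4 CPM in wild type and 367, 269.7 and 274 CPM in Nlrp3-/-, -3.19 ± 0.34 (adjusted p = 0.0122), and Mt2 was 922, 509 and 259 CPM in wild type and 180.1, 198 and 126 CPM in Nlrp3-/-, -2.38 ± 0.35 (adjusted p = 0.0304). With 6 libraries neither passed in edgeR's fit without a block (adjusted p = 0.135 and 0.121). Both passed with the replicate number as a block (0.0236 and 0.0327), although the labels do not pair libraries of the same number. Both also passed with DESeq2 (2.43e-07 and 0.000393). Mt1 did not pass without Nlrp3-/- library 3 (0.125), and over all alternatives they ranged from 4.85e-25 to 0.135 and from 4.23e-19 to 0.121. The other collagen-gated cells had Mt1 at 948, 865 and 563 CPM in wild type and 367, 368 and 208 CPM in Nlrp3-/-, again without overlap. Dbp, a transcription factor whose level follows the circadian clock, was 78.0, 65.9 and 86.3 CPM in wild type and 6.93, 5.5 and 2.56 CPM in Nlrp3-/- in members, from 1, 2 and 3 UMIs in the latter, and 45.2, 38.3 and 63.8 CPM in wild type and 5.12, 7.18 and 8.79 CPM in Nlrp3-/- in the other cells (members, adjusted p = 0.0086).

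The 49 lower genes were of several kinds, and neither of the kinds given here was tested as a group. Singled out after their values were seen, 8 were genes of the respiratory chain and ATP synthase (Ndufa5, Ndufv3, Ndufa1, Uqcrq, Uqcr11, Atp5e, Atp5mpl and Cox6b1), at -1.50 for Ndufa5 to -1.29 for Ndufa1, and the ribosomal protein genes Mrps12, Mrpl52 and Rpl41 were lower too. None of these 11 passed in edgeR's fit over all 6 libraries. Their bearing on the genes of inflammation that follow was not tested. Ccl7, a monocyte chemokine, was 395, 297 and 110.3 CPM in wild type and 55.4, 121 and 77.7 CPM in Nlrp3-/- (-2.05 ± 0.28, adjusted p = 0.0183 with 4 libraries), wild-type library 3 lying among the Nlrp3-/- libraries. Cfb of complement was 475, 589.8 and 331 CPM in wild type and 201, 113 and 220.3 CPM in Nlrp3-/- (-1.83 ± 0.33, adjusted p = 0.0482), without overlap. The interferon-response genes Irf7, Zbp1 and Ifi27l2a, singled out after their values were seen, were also lower, and Irf7 stood at 87.5, 92.7 and 28.8 CPM in wild type and 27.7, 22.0 and 24.8 CPM in Nlrp3-/- (-2.11 ± 0.29, adjusted p = 0.0183), again with wild-type library 3 close to the Nlrp3-/- libraries. None of Ccl7, Cfb or these 3 passed in edgeR's fit over all 6 libraries. Cd74, an invariant chain of antigen-presenting cells, was 89.8, 116 and 4.8 CPM in wild type and 20.8, 13.8 and 25.6 CPM in Nlrp3-/- (-2.44 ± 0.34, adjusted p = 0.0183) and Wfdc17, a gene of myeloid cells, 116, 61.4 and 0 CPM in wild type and 145, 5.5 and 17.9 CPM in Nlrp3-/- (-2.76 ± 0.49, adjusted p = 0.0487). Both overlapped between genotypes over the 6 libraries and did not pass in edgeR's fit there (adjusted p = 0.253 and 0.783, with up to 0.516 and 0.859 over all alternatives). Macrophage markers summed to 563 and 295 CPM in the members of wild-type libraries 1 and 2 and to 127 and 365 CPM in those of Nlrp3-/- libraries 2 and 3, and their part in these differences was not tested. Tpm3-rs7, a copy of Tpm3 with which reads could be shared, was 63.8, 38.0 and 67.2 CPM in wild type and 6.93, 2.75 and 0 CPM in Nlrp3-/- (-6.04 ± 0.81, adjusted p = 0.0183), without overlap. Tspan4 and H2afj, which passed over all 6 libraries as well, differed by -1.72 ± 0.25 and -1.90 ± 0.24. Adh1, Slfn2 and Ccnb1ip1 were lower too with 4 libraries. Adh1 lost its call without wild-type library 1 or 2 or Nlrp3-/- library 3, and Slfn2 without wild-type library 2. Over the 6 libraries Adh1 and Slfn2 overlapped between genotypes, with wild-type library 3 at 0 CPM for both. In edgeR's fit over all 6 libraries with the block, Slfn2 (-1.76, adjusted p = 0.412) and Ccnb1ip1 (-2.07, adjusted p = 0.0937) did not pass.

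By list, few genes passed between genotypes. Of 20 signature genes tested 1 was higher (Sema3c) and 0 lower, 15 had a positive difference and the median was 0.68, against 0.01 over all genes tested. Cd55 showed no overlap over the 6 libraries, yet at 1.00 ± 0.25 (adjusted p = 0.0872) it did not pass. Ly6a at -0.81 ± 0.24 (adjusted p = 0.129) pointed the other way and did not pass either. In the complement list 1 of 8 was lower (Cfb) and the median was -0.54, in the chemokine and interleukin-1 response list 1 of 15 (Ccl7) and -0.52, and of 4 inflammasome genes 0 passed, with a median of -0.79. In the other 10 lists 0 genes passed. Il1r1 in members did not pass (-0.52 ± 0.47, adjusted p = 0.587).

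**Figure D5:**
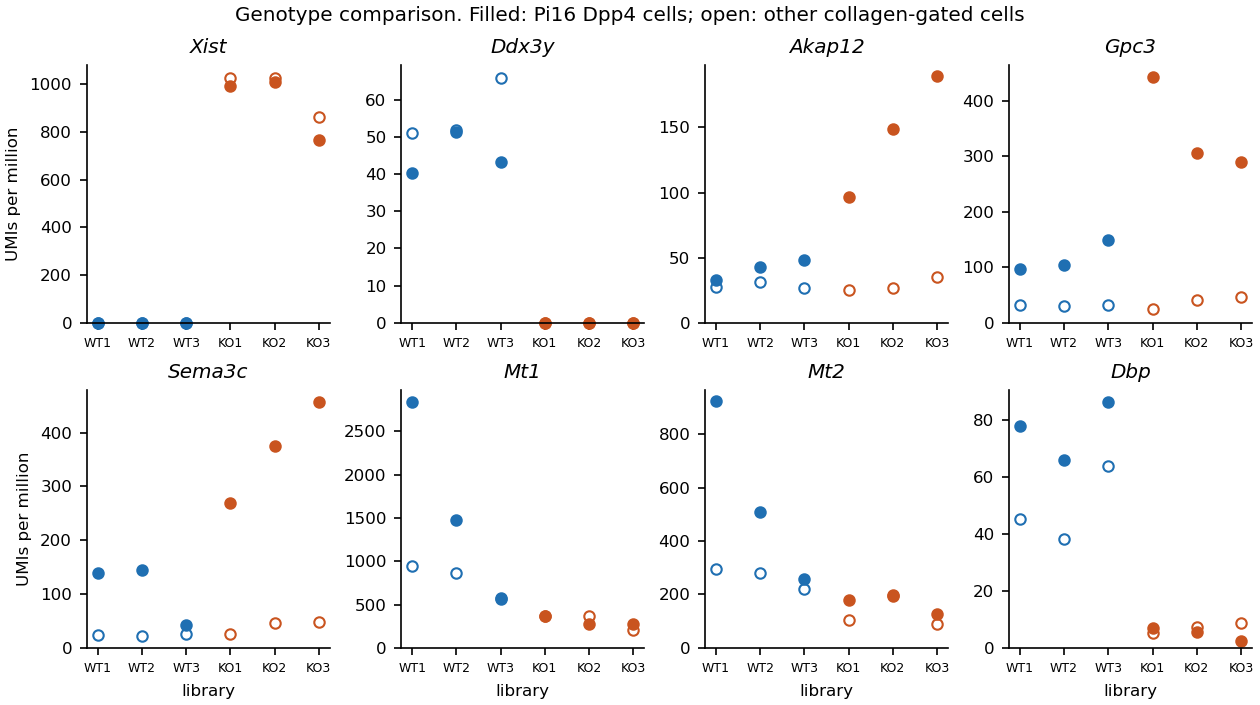
Level in CPM of 8 genes in members (filled) and in the other collagen-gated cells (open) of each library, wild type in blue and Nlrp3-/- in orange. Akap12, Gpc3 and Sema3c are higher and Mt1, Mt2 and Dbp lower in the members of all 3 Nlrp3-/- libraries than in those of any wild-type library, and Xist and Ddx3y separate the groups by sex.

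Whether the genotype difference in members differed from that in the other collagen-gated cells was tested as an interaction over all 6 libraries, in which 58 of 12138 genes passed (0.478%), 24 with a positive and 34 with a negative value. Akap12 had the smallest adjusted p, with 1.85 ± 0.29 (adjusted p = 0.000141). Dkk2 was 35.5, 22.3 and 9.59 CPM in wild type and 166, 182 and 66.6 CPM in Nlrp3-/- in members and 6.83 to 14.2 CPM in the other cells (2.30 ± 0.38, adjusted p = 0.00032). Cebpd, a transcription factor and 1 of the study's stem cell markers, was 471, 290.4 and 696 CPM in wild type and 145, 239 and 207 CPM in Nlrp3-/- in members, with no overlap, and 228, 196 and 286 CPM in wild type and 176, 264 and 229 CPM in Nlrp3-/- in the other cells (-1.17 ± 0.21, adjusted p = 0.000915). The water channel Aqp1 and Capn6 had interactions of -1.72 ± 0.29 (adjusted p = 0.000439) and -1.72 ± 0.28 (adjusted p = 0.000439), with members' values that overlapped between genotypes. Capn6 did not pass with the 4 libraries alone (-1.49, adjusted p = 0.0642, within a range of 1.39e-06 to 0.0642 over its alternatives). Of the signature, 4 of 22 genes passed (Igfbp6, Cd248, Stmn4 and Creb5). All 22 interactions were positive, with a median of 0.94 against 0.02 over all genes tested. The make-up of the other cells varied by library. Among them, cells with at least 2 Clec3b or Cd34 UMIs and no Pi16 or Dpp4 were counted. They numbered 139 of 401, 275 of 712 and 152 of 379 in wild type. In Nlrp3-/- they numbered 137 of 1670, 158 of 448 and 283 of 1072. The part of this make-up in the interactions was not tested. Without Nlrp3-/- library 1 Cd248 and Creb5 did not pass (adjusted p = 0.166 and 0.0803), nor Stmn4 without wild-type library 2 or Nlrp3-/- library 3 (0.142 and 0.632). The count of genes was 96 without wild-type library 2 and 113 without Nlrp3-/- library 2.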

How the data were processed

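Single-cell RNA was measured in 6 libraries (10x Chromium, 3' v3 chemistry), 3 wild-type and 3 Nlrp3-/-, at 7 days postinjury. The authors deposited raw UMI counts per gene and barcode for each library; the submitters' notes name mm10 and Cell Ranger 2.1.1, whereas the matrix headers name Cell Ranger 4. Of 32285 genes, 32235 were matched to GENCODE M21 (GRCm38) for coordinates. Members were selected by the stated UMI limits, counts were summed per library and cell class, and the sums were tested with edgeR 4.0.16 in R 4.3.3 (robust quasi-likelihood F test, TMM, filterByExpr, Benjamini-Hochberg, threshold 0.05), with the library as a block between classes. SEs were taken from the fold change and its F statistic. Library totals were 97042713 to 134901999 UMIs, and counting intervals are 95% Wilson intervals. Doublets were kept, and their removal was an alternative (Scrublet in scanpy 1.11.5).

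Members and gene lists were chosen with earlier results of these data known. Named genes were all listed genes, the up to 10 genes per direction with the largest genotype difference (at least 20 CPM, no overlap over the libraries tested), the up to 12 per direction between classes (at least 50 CPM, the same direction in every library) and the 5 interactions with the smallest p. Further called genotype genes were named outside this rule. These lay near Nlrp3, passed over all 6 libraries, or were singled out after their values were seen. Alternatives covered normalization, count filter, DESeq2 1.42.0, UMI and mitochondrial limits, thinning, doublets, the replicate number as a block and each library left out. Limiting both classes to cells without mural or osteoblast marker UMIs, the fits restricted to 4 or extended to 6 libraries and the alternatives against lining and Cxcl5 Saa3 cells were added after seeing the data. The test was run on simulated data, where folds were recovered and false calls exceeded the nominal rate. Some genes that passed a test are not reported here.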

Additional observations from a re-analysis of the deposited data

Results flagged for a closer look

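Among the 58 genes whose genotype difference in the Pi16 Dpp4 fibroblasts differed from that in the other collagen-gated cells of the same libraries, the 5 with the smallest p are given. The test was the interaction term of edgeR's quasi-likelihood test with Benjamini-Hochberg adjustment. The interaction was 1.85 on the log2 scale for Akap12 and 2.30 for Dkk2, both higher in the Nlrp3-/- members relative to the other cells. It was -1.72 for Aqp1, -1.72 for Capn6, which did not pass with the 4 libraries of at least 20 members (adjusted p = 0.0642), and -1.17 for Cebpd. Sex differs with genotype in these libraries, and the part of sex in these differences cannot be told apart. No group had 4 or more libraries, so single libraries were not tested as outliers.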

How the results depend on the processing

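The difference in share, -0.517 percentage points, was 0.0572 over all barcodes of acceptable quality, and -1.36 to 0.223 with 1 library left out, turning to 0.0998 without wild-type library 2 and to 0.223 without Nlrp3-/- library 1; the cause was not tested. It kept its sign in the other 6 settings (-0.615 to -0.265). The genotype count of 55 genes became 107 with RLE size factors, 500 with no filter on low counts, 109 with DESeq2, 98 with doublets removed, 7 over all 6 libraries and 129 to 792 with 1 library left out (129 without wild-type library 1, 133 without wild-type library 2, 566 without Nlrp3-/- library 2 and 792 without Nlrp3-/- library 3). It was 39 with at least 2 UMIs of Pi16 or Dpp4, 66 at 3000 UMIs and 74 with DESeq2 over all 6 libraries. With the replicate number as a block over all 6 libraries it was 21. Deviations of same-numbered libraries had correlations of 0.0554, 0.0345 and -0.0421, and the labels do not pair them. These values cannot decide the question, since wild-type library 3 had 16 members and Nlrp3-/- library 1 had 18. With 4 libraries the block could not be fitted. The count of 1733 genes between members and other collagen-gated cells became 748 after thinning to 2000 UMIs, when 8251 genes were tested, and 1137 to 1674 with 1 library left out, the lowest without Nlrp3-/- library 3; it was 1178 without mural or osteoblast marker cells and 1215 to 1947 in the others. With 1 library left out the count against lining cells was 2185 (without wild-type library 2) to 3019 and against Cxcl5 Saa3 cells 739 (without wild-type library 2) to 1776, with 806 without Nlrp3-/- library 3; with RLE size factors they were 3323 and 1656. Interaction calls were 40 to 113, with 96 without wild-type library 2 and 113 without Nlrp3-/- library 2. For the genes of largest difference (16 between genotypes, 24 between classes and 5 interactions) 148 of 179 recomputed genotype values with an adjusted p (22 from DESeq2 had none), 340 of 354 class values and 39 of 40 interaction values kept their direction and call, and the others kept their direction only; other listed genes are not in these counts, and Col15a1, Col4a1 and Col4a2 turned without mural or osteoblast marker cells. The members of the 4 libraries held 363422 to 1171149 UMIs.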
